A study of Mus musculus with 14 samples.

Results

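Messenger RNA of 8 ion channel genes of the heart was followed in bulk RNA-seq of mouse aortic valve leaflets. The genes were taken as a fixed list of names: Kcnh2, Cacna1d, Cacna1c, Cacna1g, Cacna1h, Kcnq1, Kcnj2 and Hcn4. They are 8 of the 56941 genes in the table, and all 8 passed the filter for tests, a mean of 10 or more counts per library, as 19145 genes did. The study shows Kcnh2 and Cacna1d among the genes it called between AngII and Ctrl valves. For all 8 genes that comparison is therefore a description, without a p-value.

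The 14 libraries came from male wild-type C57BL/6J mice on a Breslow Western diet, which every group received from 8 weeks of age. The 4 Ctrl mice were untreated. The 4 AngII mice received angiotensin II from minipumps at 1000 ng/kg/min for 28 days, and the 4 AngII+LY mice received the same infusion with injections of LY272015 at 3 mg/kg, which blocks the serotonin receptor HTR2B. The 2 LY mice received the antagonist alone. Libraries were grouped by their titles, since the compound number in the treatment field of some LY and AngII+LY mice is not that of LY272015. Whether the valves of all infused mice were taken 48 h after the pumps were removed could not be settled, because the labels and the methods differ. The leaflets were dissected under a microscope from perfused hearts, and each mouse gave 1 library.

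Pacemaker and working heart muscle cells fire action potentials through these channels. Cacna1c and Cacna1d encode the pore subunits of the L-type calcium channels Cav1.2 and Cav1.3, and Cacna1g and Cacna1h those of the T-type channels Cav3.1 and Cav3.2, which open at more negative voltages. Kcnh2 and Kcnq1 encode the pores of the rapid and slow delayed rectifier potassium channels that end the action potential, Kcnj2 encodes the inward rectifier Kir2.1 that holds the resting potential, and Hcn4 encodes the main channel of the pacemaker current. Cav1.3, the T-type channels and HCN4 are best known from the sinoatrial node and atria, while Cav1.2 is also the main calcium channel of smooth muscle and Kir2.1 is found in several cell types of the vessel wall.

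Upstream sequence is shown for Kcnh2 and Hcn4, both highest in the same mouse, AngII+LY 4, and for Kcnj2, which was not. The RefSeq promoter table of build GRCm38.p6 held windows for 5 of the 8 genes and none for Kcnq1, Cacna1g or Cacna1h. Each run below is 150 bases that end just before the first base of any annotated transcript that holds the RefSeq start, 5′ to 3′ on the strand of the gene. The Kcnh2 run lies at chr5:24329592-24329741 on the minus strand, the Hcn4 run at chr9:58822699-58822848 on the plus strand and the Kcnj2 run at chr11:111066005-111066154 on the plus strand. Capitals mark the GC box GGGCGG or its reverse complement CCGCCC.
Kcnh2: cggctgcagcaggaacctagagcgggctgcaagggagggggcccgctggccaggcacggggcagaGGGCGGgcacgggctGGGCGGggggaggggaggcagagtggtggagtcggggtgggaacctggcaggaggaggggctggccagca
Hcn4: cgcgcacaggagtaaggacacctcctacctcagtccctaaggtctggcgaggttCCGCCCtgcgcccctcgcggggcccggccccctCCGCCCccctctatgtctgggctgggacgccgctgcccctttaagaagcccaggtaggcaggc
Kcnj2: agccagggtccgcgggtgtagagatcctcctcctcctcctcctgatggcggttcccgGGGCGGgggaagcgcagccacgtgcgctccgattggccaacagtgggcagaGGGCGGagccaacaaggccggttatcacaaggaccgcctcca
Each of the 3 runs held 2 GC boxes. Within 250 bases before the start Kcnh2 held 3, and Hcn4 and Kcnj2 held 2 each. With 3 genes this is a description only. Among the 32851 windows of the table, 32.7% held a GC box within 250 bases before the start, on either strand. The shares of windows given here are for these 250 bases, a longer stretch than the runs of 150. The runs were 75.3% G and C for Kcnh2, 70.0% for Hcn4 and 67.3% for Kcnj2. No TATAAA was found in them on either strand, a motif in 12.4% of the windows, and CCAAT occurred once, in the Kcnj2 run, against 33.8% of the windows. Cacna1c and Cacna1d had more than 1 window each and are not shown. Within 250 bases, the Cacna1d windows held 0 and 5 GC boxes, with 3 and 0 TATAAA. The Cacna1c windows held 0, 6 and 0 GC boxes and no TATAAA. Of the 9 annotated Kcnh2 transcripts, 1 holds this start, and the counts are per gene and do not tell the transcripts apart.

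Per kb of exon, the only scale on which levels are compared between genes, Kcnh2 had the highest median of the 8 channels in Ctrl valves. Its median was 336 normalized counts per kb and its range 120 to 938 (n = 4), where normalized counts are counts scaled to a common library size by the TMM method. Kcnq1 followed with a median of 104 per kb, Kcnj2 with 96.6, Cacna1g with 63.1 and Cacna1c with 31.4. The lowest were Cacna1d with 9.95, Hcn4 with 6.89 and Cacna1h with 6.21 per kb. Kcnh2 stood above Kcnq1 in each of the 4 mice, although their ranges overlapped. It was not the highest gene in every mouse, since Ctrl 4 had 147 per kb of Kcnj2 against 120 of Kcnh2. Of the 7 neighbouring pairs in this order, only Cacna1g and Cacna1c had ranges that did not overlap (45.2 to 150 and 20.6 to 44.1 per kb). The order of Kcnq1 and Kcnj2, of Kcnj2 and Cacna1g, of Cacna1d and Hcn4 and of Hcn4 and Cacna1h was split 2 mice to 2.

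**Figure D1:**
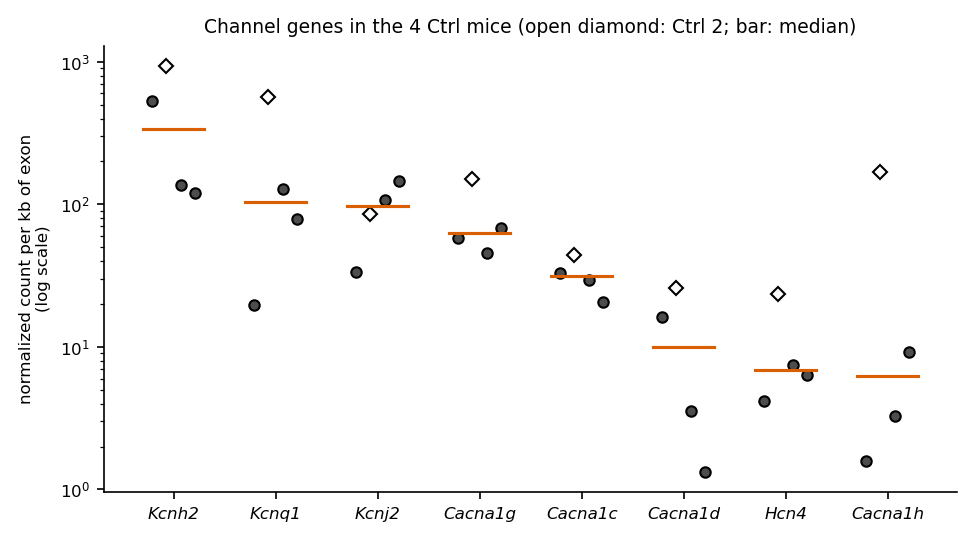
Normalized counts per kb of exon of the 8 channel genes in the 4 Ctrl mice, on a log axis, with the median as a bar. Ctrl 2, the open diamond, gave the highest value of every gene but Kcnj2, and of the Cacna1h values it stood at 169 per kb against 1.58 to 9.17 in the others.

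The libraries held 20990655 to 73128220 counts, the fewest in AngII 4. A count of 3 corresponded to 9.93 normalized counts in that library and to 2.04 to 4.32 in the others, and such a floor covers counting error only. The mitochondrial share of counts was 4.00 to 7.52% for Ctrl valves and 8.62 to 9.77% for LY valves. The range was 9.83 to 25.5% for AngII valves and for AngII+LY valves 10.1 to 20.2%. All 10 valve interstitial and all 10 endothelial marker genes had counts in every library. Endothelial markers stood at 0.158 to 0.395% of the counts. Valve interstitial markers stood at 0.528 to 0.918% in AngII+LY, below every mouse of the other groups, with 1.216 to 1.852% in AngII, 1.208 to 1.992% in LY and from 1 to 2.01% in Ctrl valves. The part of this shift in the channel counts was not tested. All 20 cardiomyocyte markers also had counts in every library, at 1.10 to 6.32% of the counts.

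2 libraries stood apart in muscle RNA. Myl7, the atrial myosin light chain, had 208649 normalized counts in Ctrl 2 and 155866 in AngII+LY 4 but 1842 to 35811 in the other 12, the highest of these in LY 1. A list of 6 atrial markers, chosen after these values were seen, took 0.864% of the counts in Ctrl 2 and 0.870% in AngII+LY 4. It took 0.0277 to 0.0332% in the other Ctrl mice, 0.0178 and 0.126% in the LY mice, 0.00794 to 0.0727% in the AngII mice and 0.0174 to 0.0273% in the other AngII+LY mice. In 5 of the 6 atrial markers these 2 mice were the highest, and the sixth, Bmp10, was at 0 in both. In AngII+LY 4 the excess was not confined to the atrial list. Of 4 ventricular markers chosen in the same way, 2 were highest in AngII+LY 4, Myh7 and the transcription factor Irx4. Irx4 had 1495 normalized counts there against at most 680 elsewhere. Myl2 and Myl3, the other 2, were highest in AngII+LY 3, and in none of the 4 were Ctrl 2 and AngII+LY 4 the 2 highest mice. Together the 4 took 0.847% of the counts in AngII+LY 4 against 0.959% in AngII+LY 3, and 0.524% in Ctrl 2 against 0.659% in Ctrl 3. The 20 cardiomyocyte markers include Myl7, Myl4 and Nppa of the atrial list and Myl2 and Myl3 of the ventricular list. Of the 20, 15 were highest in Ctrl 2 or AngII+LY 4. In 7, among them Myl7, Myl4 and Nppa, both were the 2 highest. Ctrl 1 stood apart in another way, with smooth muscle markers at 1.004% of the counts against 0.0373 to 0.374% elsewhere. In bulk tissue, fewer cells of a type and less RNA per cell cannot be told apart.

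Kcnh2 (ENSMUSG00000038319, chr5:24524567-24556762 of GRCm39) spread widely between mice of the same group. It had 2773, 4865, 712 and 624 normalized counts in Ctrl 1 to 4 and 1250 and 759 in the LY mice. In AngII 1 to 4 it had 404, 285, 689 and 72.8, and in AngII+LY 1 to 4 it had 371, 617, 767 and 5081. AngII+LY 4, Ctrl 2 and Ctrl 1 were the high mice, AngII 4 was the lowest, and the groups overlapped because AngII 3 lay above Ctrl 4. AngII valves held 363 ± 257 (SD, n = 4) and Ctrl valves 2244 ± 2010, a log2 fold change of -2.62 (SE 0.90).

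Kcnq1 (ENSMUSG00000009545, chr7:142660099-142980788) had 102, 2890, 662 and 406 normalized counts in the Ctrl mice and 858 and 521 in the LY mice. It had 383, 166, 507 and 212 in the AngII mice and 584, 419, 904 and 2098 in the AngII+LY mice. The highest and the lowest of all 14 values were both in Ctrl mice, Ctrl 2 and Ctrl 1, and no AngII mouse lay outside the Ctrl range. The log2 fold change between AngII and Ctrl was -1.68 (SE 0.79). Kcnq1ot1, a noncoding RNA on the other strand, shares 834 exonic bases with Kcnq1, and since the strand setting of the counting is not given in the sources used here, reads there cannot be told apart.

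Kcnj2 (ENSMUSG00000041695, chr11:110956981-110967665) had 185, 467, 591 and 804 normalized counts in the Ctrl mice and 810 and 257 in the LY mice. It had 569, 695, 1229 and 341 in the AngII mice and 968, 406, 554 and 509 in the AngII+LY mice. Neither Ctrl 2 nor AngII+LY 4 was at an extreme of its group. The log2 fold change between AngII and Ctrl was 0.47 (SE 0.50).

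**Figure D2:**
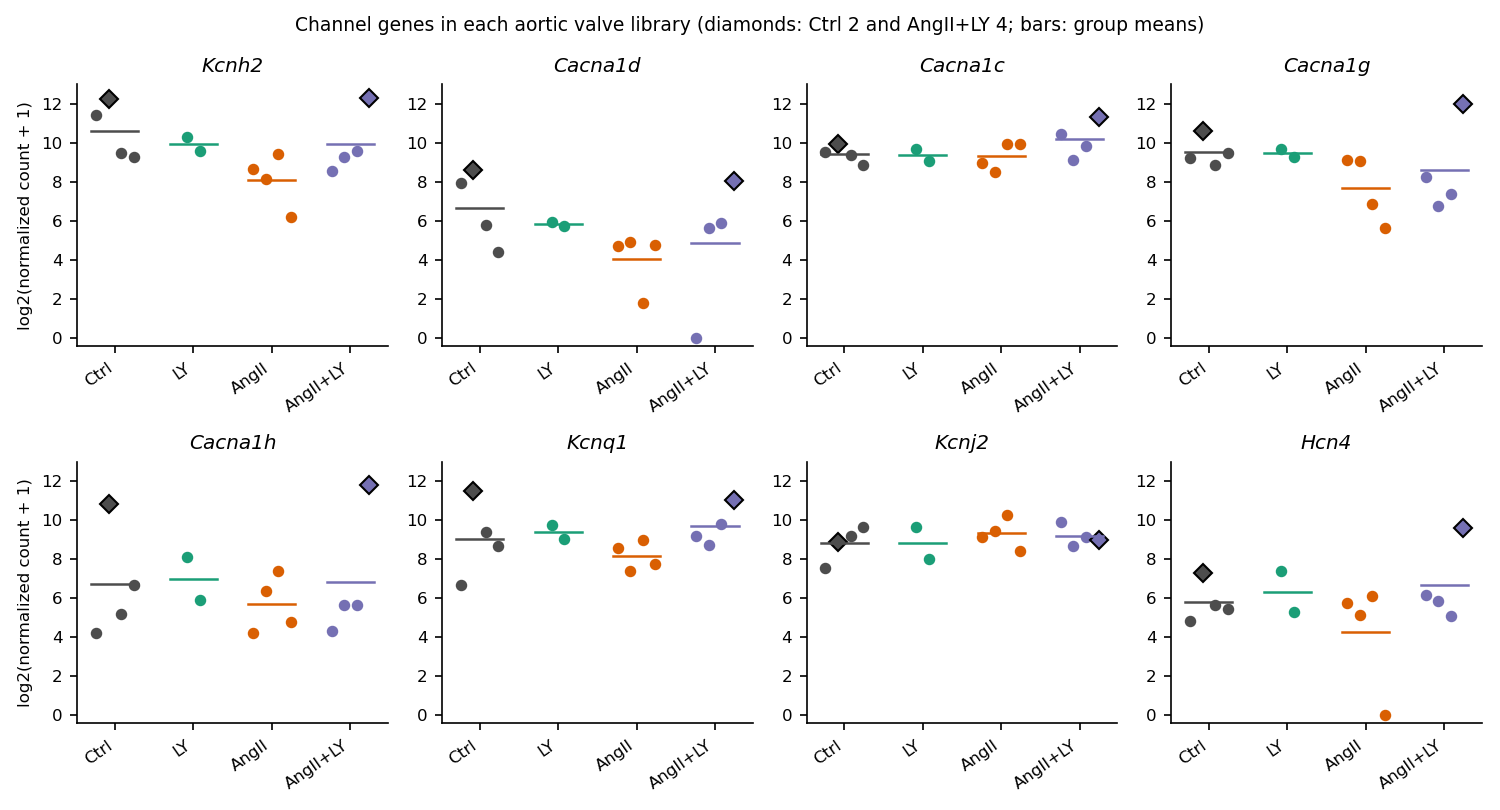
Level of each channel gene in each of the 14 libraries as log2(normalized count + 1), by group, with the group mean as a bar and Ctrl 2 and AngII+LY 4 as diamonds. These 2 libraries lay at the top of every gene but Kcnj2 within their own group, and each panel shows groups that overlap.

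Cacna1c (ENSMUSG00000051331, chr6:118564201-119173851), the L-type channel shared by heart and smooth muscle, varied least between mice of the calcium channels. It had 739, 985, 662 and 460 normalized counts in the Ctrl mice, 835 and 543 in the LY mice, 501, 360, 982 and 973 in the AngII mice, and 1399, 556, 929 and 2577 in the AngII+LY mice. Ctrl and AngII valves held 712 ± 217 and 704 ± 321 (SD, n = 4 each), and the log2 fold change was -0.02 (SE 0.44).

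Cacna1d (ENSMUSG00000015968, chr14:29761896-30213412), the other L-type channel, was low throughout. It had 248, 392, 54.0 and 20.1 normalized counts in the Ctrl mice and 61.4 and 51.6 in the LY mice. In the AngII mice it had 24.8, 29.3, 2.40 and 26.5, the third of these from 2 counts, and in the AngII+LY mice 0, 48.5, 59.0 and 262. Ctrl 1 and Ctrl 2 lay far above the other Ctrl mice, and Ctrl 4 lay within the AngII range. The log2 fold change between AngII and Ctrl was -3.11 (SE 1.27). Chdh, on the other strand, shares 1477 exonic bases with Cacna1d, which is 15191 exonic bases long, and Chdh itself had 0 to 214 normalized counts.

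The T-type channel Cacna1g (ENSMUSG00000020866, chr11:94299217-94365230) had 597, 1554, 468 and 708 normalized counts in the Ctrl mice and 825 and 619 in the LY mice. It had 568, 543, 118 and 49.6 in the AngII mice and 301, 109, 166 and 4023 in the AngII+LY mice. AngII+LY 4 was the highest of the 14, and the other AngII+LY mice were all below every Ctrl and LY mouse. The log2 fold change between AngII and Ctrl was -1.36 (SE 1.01).

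The T-type channel Cacna1h (ENSMUSG00000024112, chr17:25593259-25652764) was high in 2 mice only. It had 1849 normalized counts in Ctrl 2 and 3598 in AngII+LY 4, while the other Ctrl mice had 17.4, 35.7 and 100.5 and the other AngII+LY mice 19.2, 48.5 and 49.0. The LY mice had 272 and 59.5, and the AngII mice 17.6, 80.4, 167 and 26.5. The log2 fold change between AngII and Ctrl was -2.75 (SE 1.68) with Ctrl 2 and AngII+LY 4, and 0.51 (SE 0.91) without them.

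Hcn4 (ENSMUSG00000032338, chr9:58730132-58770458) encodes the pacemaker channel. It had 27.8, 157, 49.7 and 42.3 normalized counts in the Ctrl mice, 166 and 37.6 in the LY mice, 53.8, 34.1, 67.3 and 0 in the AngII mice, and 70.0, 56.8, 33.1 and 784 in the AngII+LY mice. AngII+LY 4 was the highest, followed by LY 1 and Ctrl 2, the 3 mice with the most Myl7. The 0 in AngII 4 allows up to 9.93 normalized counts. The log2 fold change between AngII and Ctrl was -0.80 (SE 1.09).

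The AngII and Ctrl groups overlapped for every one of the 8 genes, where 7.46% of all tested genes were higher and 7.56% lower in AngII without overlap. By edgeR's quasi-likelihood test no gene of the 19145 was called between AngII and Ctrl (0% called, where a call needs a log2 fold change beyond 0.5 either way at an adjusted p under 0.05), against 4815 genes (25.2%) at an unadjusted p under 0.05. DESeq2 called 2784 genes, and the newer quasi-likelihood method of edgeR, tried after the data were seen, called 555. Log2 fold changes below -1 were found for 5 of the 8 genes, Kcnh2, Cacna1d, Cacna1g, Cacna1h and Kcnq1, and for 8.59% of all tested genes (20.3% passed 1 in either direction). Of the 8, 7 had a negative and 1 a positive value, against 52.7% and 47.2% of the tested genes. Without Ctrl 2 and AngII+LY 4, 2 of these 5 remained below -1, Kcnh2 at -1.91 (SE 0.65) and Cacna1d at -2.37 (SE 1.26). Both values still rest in part on Ctrl 1, the mouse with the most smooth muscle marker RNA. It had 2773 normalized counts of Kcnh2 against 712 and 624 in Ctrl 3 and Ctrl 4, and 248 of Cacna1d against 54.0 and 20.1. A fit without Ctrl 1 and Ctrl 2 together was not made. Cacna1g then stood at -0.88 (SE 0.66), Kcnq1 at -0.30 (SE 0.56), Hcn4 at -0.02 (SE 0.99), Cacna1c at 0.18 (SE 0.41) and Kcnj2 at 0.43 (SE 0.57).

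Between AngII+LY and AngII valves, the comparison that asks what the antagonist changed during the infusion, none of the 8 genes was called, as none of all genes was (0% called). Kcnh2 came nearest, at 1709 ± 2254 against 363 ± 257 normalized counts (SD, n = 4 each) and a log2 fold change of 2.22 (SE 0.89, edgeR adjusted p = 0.161). DESeq2 called Kcnh2 in this comparison, with 2.26 (adjusted p = 0.0398), where it called 15.1% of the genes for which it gave an adjusted p, and over all alternatives its adjusted p ranged from 0.0398 to 0.649. Of the 4 AngII+LY mice, 2 lay above all AngII mice. Without Ctrl 2 and AngII+LY 4 the log2 fold change of Kcnh2 was 0.68 (SE 0.64, edgeR adjusted p = 0.615).

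The 2 T-type channels turned their direction with these mice. Cacna1h differed by 3.65 on the log2 scale between AngII+LY and AngII (SE 1.75, edgeR adjusted p = 0.234) and by -0.91 (SE 0.92) without Ctrl 2 and AngII+LY 4. Cacna1g differed by 1.83 (SE 1.02, edgeR adjusted p = 0.306), and by -0.75 (SE 0.68) without them. For Hcn4 the difference of 2.57 (SE 1.14, edgeR adjusted p = 0.202) became 0.44 (SE 0.98).

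The L-type channels and the remaining potassium channels kept their sign. Cacna1d differed by 2.16 (SE 1.23, edgeR adjusted p = 0.319) and by 0.79 (SE 1.24) without the 2 mice, and Cacna1c by 0.96 (SE 0.45, edgeR adjusted p = 0.220) and 0.45 (SE 0.41). Kcnq1 differed by 1.66 (SE 0.79, edgeR adjusted p = 0.231) and by 1.0 (SE 0.56), with 3 of 4 AngII+LY mice above all AngII mice. Kcnj2 differed by -0.22 (SE 0.50, edgeR adjusted p = 0.838) and by -0.14 (SE 0.57). At an unadjusted p under 0.05 stood 3 of the 8 genes (Kcnh2, Cacna1c and Hcn4), all higher in AngII+LY, where 10.1% of all tested genes were higher at that threshold (22.5% in either direction). All 8 genes overlapped between these groups, which 5.45% of tested genes did not do by being higher and 5.66% by being lower. The opposite signs of this comparison and of AngII against Ctrl share the AngII mice and are not separate evidence.

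**Figure D3:**
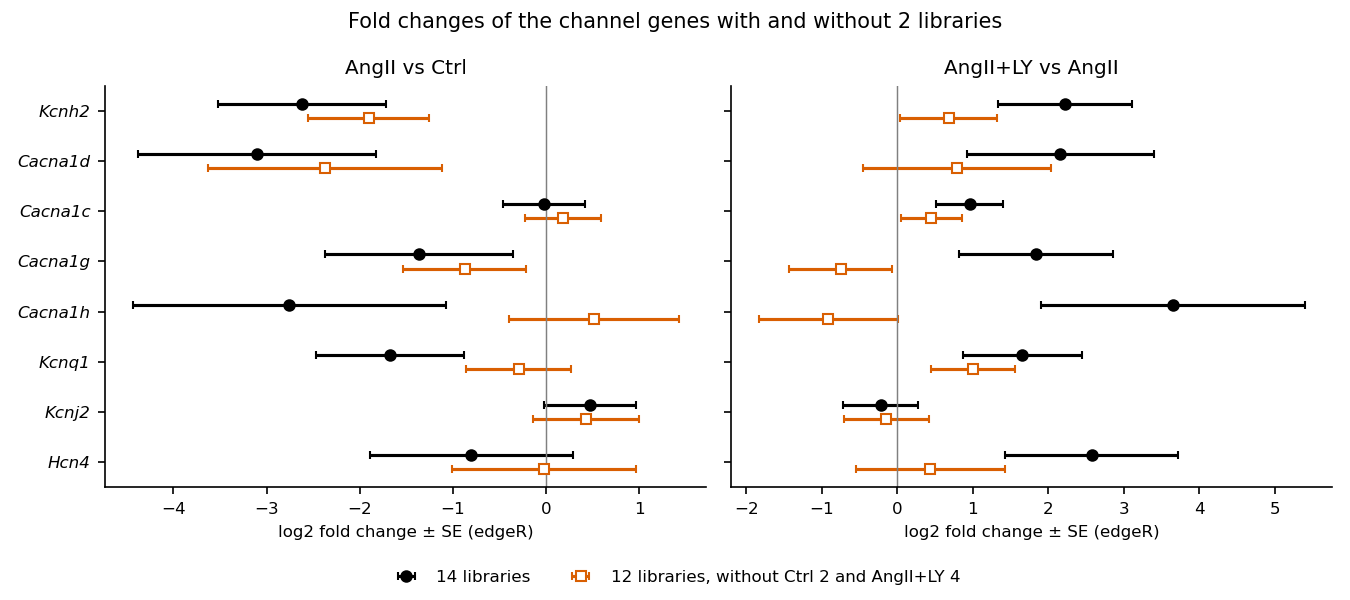
Log2 fold changes of the 8 channel genes with their standard errors from edgeR, for AngII against Ctrl (left) and AngII+LY against AngII (right), over all 14 libraries (filled) and without Ctrl 2 and AngII+LY 4 (open). On the right, Cacna1h moved from 3.65 to -0.91 and Cacna1g from 1.83 to -0.75, whereas Kcnj2 moved from -0.22 to -0.14.

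Between AngII+LY and Ctrl valves, the log2 fold changes ran from -0.94 for Cacna1d (SE 1.17, edgeR adjusted p = 0.821) to 1.77 for Hcn4 (SE 1.11, edgeR adjusted p = 0.605). Cacna1c, at 0.94 (SE 0.44), had the smallest adjusted p of the 8 in edgeR, 0.460. No gene of the table was called by edgeR (0% called, 2112 genes or 11% at an unadjusted p under 0.05), and DESeq2 called 379. Without the 2 mice Cacna1g stood at -1.62 (SE 0.73, edgeR adjusted p = 0.490), against 0.47 (SE 0.99) with them, and all 3 remaining AngII+LY mice had less Cacna1g than any Ctrl mouse.

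Between LY and Ctrl valves, with 2 LY mice, the log2 fold changes ran from -1.66 for Cacna1d (SE 1.54) to 0.56 for Hcn4 (SE 1.29), each with an edgeR adjusted p of 1. No gene of the table was called by edgeR (0% called, 266 genes or 1.39% at an unadjusted p under 0.05), while DESeq2 called 24. The difference between the antagonist's effect with and without AngII was tested as an interaction in the same fit. Among the channel genes it was largest for Cacna1h, 5.24 on the log2 scale (SE 2.84), and stood at 3.38 (SE 1.45) for Kcnh2. The interaction contains the difference between AngII and Ctrl with its sign turned, the comparison in which the study called Kcnh2 and Cacna1d. A positive interaction for these genes is therefore not separate evidence, and for the channel genes the values are a description without a p-value. No gene of the table passed in the interaction test (edgeR, 2545 genes at an unadjusted p under 0.05).

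The ranks of the 2 mice describe their place in these counts. In 5 of the 8 genes, Kcnh2, Cacna1d, Cacna1g, Cacna1h and Kcnq1, the highest and second highest of all 14 libraries were Ctrl 2 and AngII+LY 4. This was the case for 4.16% of the tested genes (796 of 19145). The 2 mice were singled out after the data were seen, so the comparison with this share is a description and not a test. The exceptions were Kcnj2, Cacna1c, whose second highest mouse was AngII+LY 1, and Hcn4, whose second highest was LY 1. The gap from Ctrl 2 or AngII+LY 4 down to the rest of its group exceeded Dixon's critical value in 2.15% and 3.30% of the tested genes (3.30% also for AngII 4), and for 2 and 4 of the 8 channel genes. Whether the atrial RNA of these libraries carried the channel transcripts was not tested.

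Kcnq1 followed the level of heart muscle RNA across the libraries. That level was taken as the mean of log2(normalized count + 1) over 20 cardiomyocyte markers, among them Myh6, Tnnt2 and Ttn, of which none is one of the 8 channels. For Kcnq1, Pearson's r was 0.92 and Spearman's rho 0.93 (n = 14 mice, 2-sided permutation p = 1e-05 for both, the smallest the permutations can give, adjusted p = 8e-05 over the 8 genes). Without the 2 mice farthest from the median marker level, which were AngII+LY 4 and Ctrl 2, r was 0.87. On deviations from the group means it was 0.96 (permutation p = 2e-05, adjusted p = 0.00016). Cacna1c had r = 0.77 and rho = 0.75 (permutation p = 0.00128 and 0.00279, adjusted p = 0.00512 and 0.0112), 0.59 without the 2 mice and 0.68 on deviations from the group means (permutation p = 0.0119, adjusted p = 0.0244). Tested on the remaining 12 mice, Kcnq1 held (permutation p = 0.00015, adjusted p = 0.0012) and Cacna1c did not pass (permutation p = 0.0438, adjusted p = 0.150, with a rho of 0.62 and an adjusted p = 0.128).

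Cacna1h and Hcn4 passed by Pearson's r over all 14 mice, and like Cacna1c did not pass over the other 12. Cacna1h had r = 0.72 (n = 14 mice, permutation p = 0.00404, adjusted p = 0.0108) and rho = 0.49 (permutation p = 0.0746, adjusted p = 0.135), and r was 0.17 without them. On deviations from the group means its r was 0.81 (permutation p = 0.0122, adjusted p = 0.0244). Hcn4 had r = 0.66 (permutation p = 0.0132, adjusted p = 0.0264) and rho = 0.73 (permutation p = 0.00448, adjusted p = 0.0119), r was 0.38 and rho 0.59 without them (permutation p = 0.241 and 0.0479, adjusted p = 0.386 and 0.128), and r was 0.60 on deviations from the group means (permutation p = 0.0096, adjusted p = 0.0244).

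The other 4 genes did not pass after adjustment. Kcnh2 had r = 0.52 and rho = 0.48 (n = 14 mice, permutation p = 0.0584 and 0.0842, adjusted p = 0.0934 and 0.135) and r = -0.03 without the 2 mice. Cacna1g had r = 0.41 and rho = 0.21 (permutation p = 0.146 and 0.471, adjusted p = 0.195 and 0.471), Kcnj2 had r = 0.31 and rho = 0.26 (permutation p = 0.287 and 0.376, adjusted p = 0.328 and 0.430) and Cacna1d had r = 0.15 and rho = 0.32 (permutation p = 0.598 and 0.260, adjusted p = 0.598 and 0.347). Without the 2 mice r was -0.24 for Cacna1g, 0.57 for Kcnj2 and -0.49 for Cacna1d. Ctrl 1, with the lowest mean log2 marker level of all mice, had the third highest Kcnh2 and Cacna1d and the lowest Kcnq1.

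**Figure D4:**
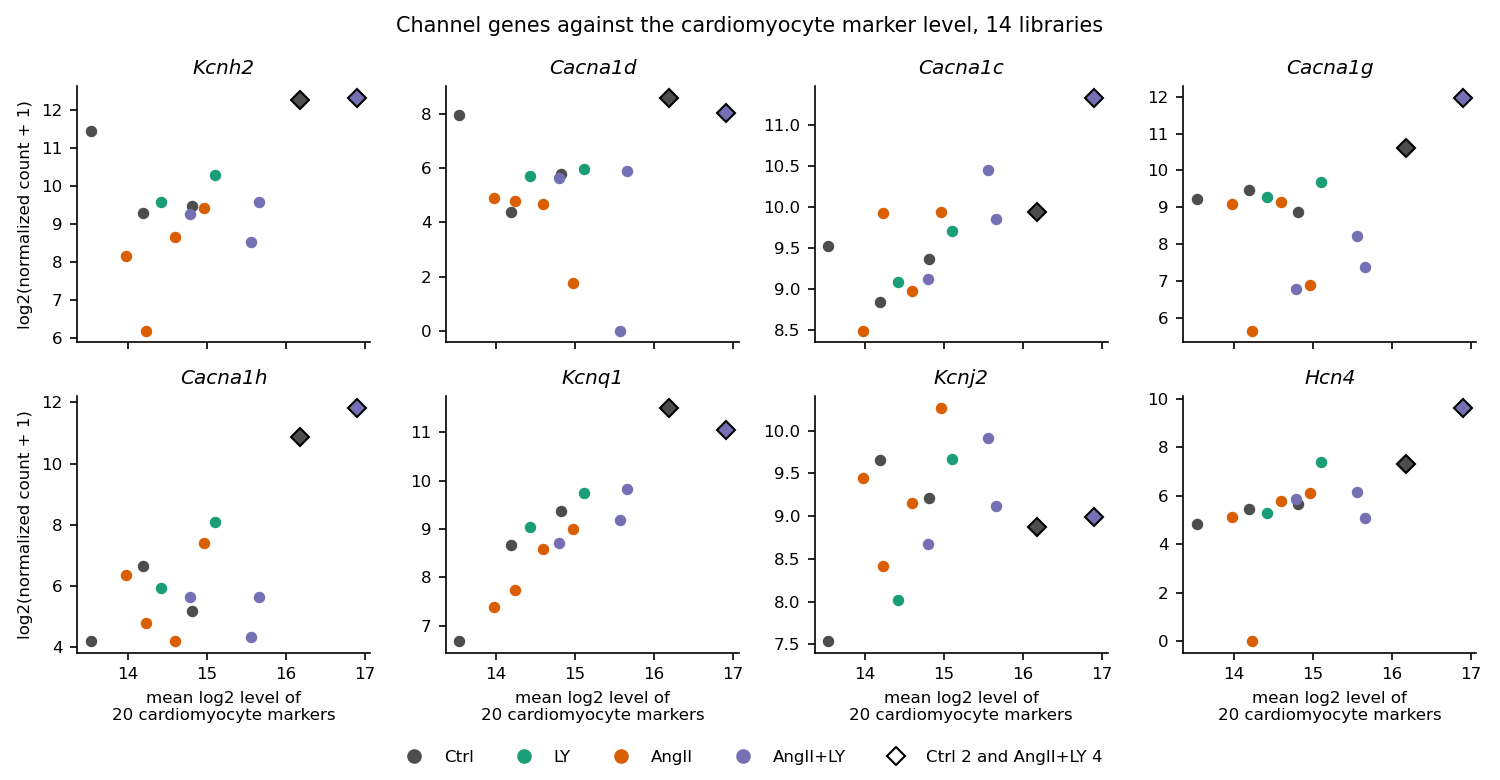
Level of each channel gene, log2(normalized count + 1), against the mean log2 level of 20 cardiomyocyte markers in the 14 libraries, coloured by group, with Ctrl 2 and AngII+LY 4 as diamonds. Kcnq1 rises along the whole axis (r = 0.92, and 0.87 without the 2 diamonds), whereas Cacna1h is high in the 2 diamonds (r = 0.72, and 0.17 without them).

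Fold changes of all tested genes were related to the G and C content of their exons. The rank correlation across genes was -0.55 for AngII against Ctrl and 0.44 for AngII+LY against AngII, where genes are not independent replicates. The 8 channels span 41.2% for Kcnj2 to 62.5% for Kcnh2, with Hcn4 at 59.5%, Cacna1h at 59.6%, Cacna1g at 58.2%, Kcnq1 at 54.3%, Cacna1c at 49.6% and Cacna1d at 48.8%. After each library was corrected for this content, the log2 fold change between AngII and Ctrl was -2.07 for Kcnh2, -3.0 for Cacna1d and -2.12 for Cacna1h. It was -1.14 for Kcnq1, -1.01 for Cacna1g, -0.33 for Hcn4 and 0.19 for Cacna1c, and that of Kcnj2 went from 0.47 to -0.11. The share of mitochondrial counts, which was highest in AngII 3, AngII 4 and AngII+LY 1, also differed between the groups, and its part in the channel counts was not tested.

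For each channel the 3 genes with the most similar profile were sought among the 13618 genes that averaged 100 or more counts, by Pearson's r of log2(normalized count + 1) over the 14 libraries. The highest r of all was that of Kcnh2 with Smarcd3, a subunit of the BAF chromatin remodelling complex, at 0.98, and 0.98 without Ctrl 2 and AngII+LY 4. Next for Kcnh2 were Csdc2 and Efhd2, both at 0.95. Smarcd3 lies 239.1 kb from Kcnh2 on chromosome 5, at chr5:24795816-24829409 of GRCm39. Abcb8, the gene most like Hcn4 (r = 0.92), lies 41.9 kb from Kcnh2, at chr5:24598639-24616950, although Hcn4 itself is on chromosome 9. Of the 24 genes so found, 2 lie on the chromosome of the channel they resemble.

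For Kcnq1 the most similar genes were Mylk3, the cardiac myosin light chain kinase, and Myh6, the alpha myosin heavy chain of atria and mouse ventricle, one of the 20 markers above, both at 0.97, and then Dnaja4 at 0.95. For Cacna1c, Fgf1 and Sh3bgr were among them, both at 0.92. Cacna1h was closest to Cacna2d2, an auxiliary calcium channel subunit, at 0.94, a value that was 0.77 without the 2 mice, and then to Slc17a7 at 0.92 and Sfrp5 at 0.90. Cacna1g was closest to Sbk3 at 0.93 and to Aldh16a1 and Cyp4b1 at 0.92. Cacna1d was closest to Iars2, Anapc5 and Ift27, at 0.92, 0.89 and 0.87, and Hcn4, after Abcb8, to Rhbdd3 at 0.92 and Ptges2 at 0.91. Kcnj2 had no gene above 0.80, which it reached with Ddx60, followed by Tob1 at 0.75 and Ptcd3 at 0.74. Between the channels themselves r was highest for Kcnh2 and Hcn4, 0.78 over 14 mice and 0.68 over the 12 without Ctrl 2 and AngII+LY 4. Cacna1d and Kcnj2 had the lowest, -0.64 and -0.72.

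Among 21 calcium channel partners, the auxiliary and regulatory genes of the calcium channels, 17 were tested. Between AngII and Ctrl, none of the lists below had a called gene in edgeR, where 0% of all tested genes were called. The calcium channel partners had 7 genes with a positive and 10 with a negative log2 fold change and a median of -0.27, beside -0.06 over all tested genes. Without Ctrl 2 and AngII+LY 4 the median turned to 0.09, with 9 positive and 8 negative. Cacna2d1, the alpha 2 delta subunit that carries L-type channels to the membrane, had 1642, 1415, 1055 and 1795 normalized counts in the Ctrl mice and 2372, 2073, 4940 and 4715 in the AngII mice. The gene is also shown by the study among its calls, so its values here are a description without a p-value. The groups did not overlap, and the log2 fold change was 1.25 (SE 0.36), and 1.23 without the 2 mice. Cacnb1, a beta subunit of the skeletal muscle channel, was lower without overlap, with 366 to 702 normalized counts in Ctrl and 185 to 359 in AngII and a log2 fold change of -0.92 (SE 0.37, edgeR adjusted p = 0.144). Rem1, a small GTPase that inhibits L-type channels, had 660 to 807 in Ctrl and 301 to 554 in AngII, also without overlap (-0.79, SE 0.27, edgeR adjusted p = 0.103). Of the 17 genes, 1 was higher and 2 lower without overlap, against 7.46% and 7.56% of all tested genes. Cacnb1 and Rem1 were named for their fold change over its SE in this comparison, so the lack of overlap is not separate evidence. Cacnb2, the main beta subunit of heart muscle, stood at 0.14 (SE 0.58) and Cacna1s, the skeletal muscle L-type channel, at -3.86 (SE 1.75) from at most 123 normalized counts in any mouse.

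In AngII+LY against AngII the same 17 genes had a median of 0.25, beside -0.02 over all genes, with 10 positive and 7 negative, against 49.1% and 50.9% of all tested genes. Without the 2 mice the median turned to -0.35, with 8 positive and 9 negative. Rrad, another small GTPase that inhibits L-type channels, was the one gene of the 17 without overlap, as 5.45% of all tested genes were in that direction, with 5067, 3260, 4756 and 1688 normalized counts in the AngII mice and 7033, 5380, 13011 and 16050 in the AngII+LY mice. Its log2 fold change was 1.49 (SE 0.42, edgeR adjusted p = 0.0791), and 1.2 without the 2 mice. Cacna1s stood at 4.12 (SE 1.77, edgeR adjusted p = 0.189) and Rem1 at 0.63 (SE 0.27, edgeR adjusted p = 0.185).

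Of 39 other cardiac potassium channel genes, 37 were tested. Between AngII and Ctrl, 13 had a positive and 24 a negative log2 fold change, with a median of -0.50, which was -0.08 without Ctrl 2 and AngII+LY 4. Kcnab2, a beta subunit of voltage-gated potassium channels, had 194 to 295 normalized counts in Ctrl and 78.1 to 166 in AngII mice without overlap (-1.22, SE 0.41, edgeR adjusted p = 0.1). Of the 37 genes, 2 were lower without overlap, Kcnab2 and Kcna2, and 0 were higher, against 7.56% and 7.46% of all tested genes. Kcnd3, a pore of the transient outward current, stood at 1.08 (SE 0.46, edgeR adjusted p = 0.162), and Kcnmb1, the smooth muscle beta subunit of the BK channel, at -3.27 (SE 1.46), with 4459 normalized counts in Ctrl 1 and 8.75 to 951 in the other mice. The atrial acetylcholine-gated channel genes had their 2 highest values in Ctrl 2 and AngII+LY 4, Kcnj5 with 5148 and 4934 against 566 to 2628 elsewhere and Kcnj3 with 2090 and 2109 against 207 to 1420.

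In AngII+LY against AngII the 37 genes had 25 positive and 12 negative values and a median of 0.20, which was -0.15 without the 2 mice. Kcnj11, the pore of the ATP-sensitive potassium channel, was higher without overlap, with 335 to 683 normalized counts in the AngII mice against 907 to 2082 with LY272015 added (1.36, SE 0.45, edgeR adjusted p = 0.111), and stood at 1.0 without the 2 mice. Kcnip2, the partner of the transient outward channel, had 612 to 1940 in the AngII mice against 2105 to 4367 with LY272015 added, also without overlap (1.12, SE 0.52, edgeR adjusted p = 0.220). Kcnk3, the background channel TASK-1, stood at 1.48 (SE 0.50, edgeR adjusted p = 0.113), and 1.12 without the 2 mice. Kcne1, the beta subunit that turns KCNQ1 into the slow delayed rectifier, stood at 2.27 (SE 0.76, edgeR adjusted p = 0.112) with 3626 normalized counts in AngII+LY 4, and at 0.89 without the 2 mice. Without overlap were 3 of the 37 genes, all higher, and 5.45% of all tested genes were higher in AngII+LY in that way.

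Of 21 pacemaker and conduction genes, 19 were tested. Between AngII and Ctrl, 6 had a positive and 13 a negative log2 fold change and the median was -0.72, against 0.12 without Ctrl 2 and AngII+LY 4. For AngII+LY against AngII, 16 were positive and 3 negative with a median of 1.15, against -0.21 without the 2 mice, when 8 were positive and 11 negative. Tbx3, a transcription factor of the conduction system and of valves, had 3096 normalized counts in AngII+LY 4 and 194 to 761 elsewhere. Hcn2 did not follow the 2 mice alone, with 650 normalized counts in Ctrl 2, 610 in AngII+LY 3 and 600 in AngII+LY 4 against 59.0 to 264 elsewhere.

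Gja1, the gap junction protein connexin 43 of ventricular muscle and many other cells, had 9484, 9390, 11968 and 21440 normalized counts in the Ctrl mice and 23630, 23572, 20124 and 39557 in the AngII mice. The groups overlapped through Ctrl 4, and the log2 fold change was 1.03 (SE 0.31, edgeR adjusted p = 0.0803). Tbx2, which with Tbx3 represses working muscle genes, stood at -1.68 (SE 0.69, edgeR adjusted p = 0.152) and at -0.72 without the 2 mice. Between AngII+LY and AngII, Popdc2, a membrane protein that binds cyclic AMP, stood at 1.56 (SE 0.55, edgeR adjusted p = 0.122), Nkx2-5, the cardiac homeobox factor, at 1.51 (SE 0.55, edgeR adjusted p = 0.133) and Tbx18 at -1.03 (SE 0.38, edgeR adjusted p = 0.136). These 3 stood at 1.18, 1.07 and -0.88 without the 2 mice.

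Of 11 sodium channel genes, 10 were tested, with medians of -0.17 between AngII and Ctrl and 0.15 between AngII+LY and AngII. Without the 2 mice the first turned to 0.41, with 7 positive and 3 negative, and the second was 0.06. Scn7a, the sodium-sensing channel, had 566 to 1340 normalized counts in Ctrl and 1384 to 3428 in AngII mice without overlap (1.02, SE 0.40, edgeR adjusted p = 0.133). Of the 10 genes, 1 was higher and 1 lower without overlap, against 7.46% and 7.56% of all tested genes. Scn2b stood at -1.33 (SE 0.78) between AngII and Ctrl, and Scn10a at 1.01 (SE 0.68) between AngII+LY and AngII.

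**Figure D5:**
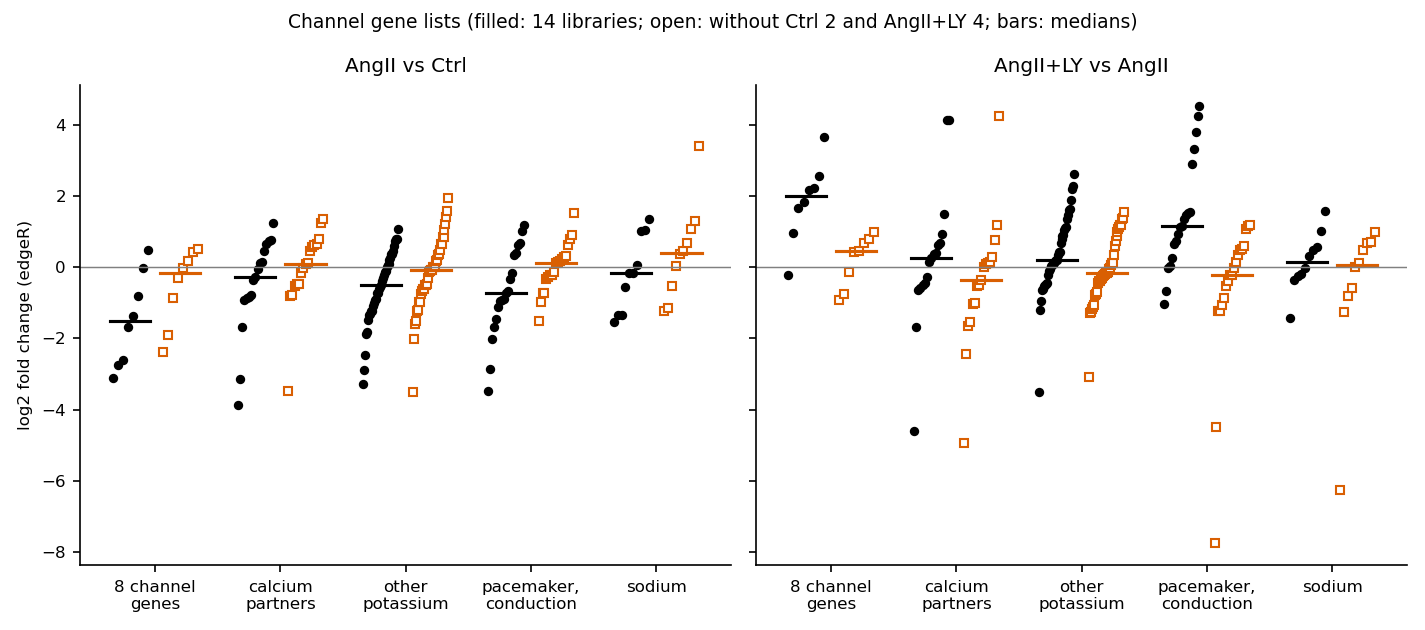
Log2 fold changes from edgeR of the 8 channel genes and of the tested genes of 4 channel gene lists, for AngII against Ctrl and AngII+LY against AngII, sorted within each list, with medians as bars. The filled points use all 14 libraries and the open squares leave out Ctrl 2 and AngII+LY 4, which brought the median of the pacemaker and conduction genes from 1.15 to -0.21 on the right.

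The cardiomyocyte markers themselves, beside which these lists should be read, had positive log2 fold changes between AngII+LY and AngII for 20 of 20 genes, with a median of 1.43. Without Ctrl 2 and AngII+LY 4 it was 17 of 20 with a median of 1.08. Their share of counts was 2.63 to 6.32% for AngII+LY valves and 1.10 to 2.17% for AngII valves. Their part in the differences of the channel lists was not tested.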

How the data were processed

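RNA-seq was made from aortic valve leaflets of 14 mice. The authors checked reads with FastQC, trimmed them, used HISAT2 for alignment to GRCm39 and featureCounts for counting by gene, and tested with DESeq2. The table is named as normalized, but the counts deposited by the authors are whole numbers whose totals differ between libraries, so they were used as raw counts. Even values made up 60.1% of the counts from 1 to 8. Whether a read pair was counted as 1 or 2 is not given in the sources used here, so a low count, such as 2 or the floor of 3, may stand for fewer fragments. Genes were matched to GENCODE vM39, and 618 genes with 0.0361% of the counts had no match.

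Tests used edgeR 4.0.16 in R 4.3.3 on genes that averaged 10 or more counts (TMM, default quasi-likelihood test, which in this version is the older method, 1 fit of 4 groups, Benjamini-Hochberg over 19145 genes). A call needed a log2 fold change beyond 0.5 either way at an adjusted p under 0.05, as in the study's methods. The test was checked on simulated counts, with a pass condition set only at a dispersion 10 times smaller than that estimated from these data. The check therefore does not tell how many true changes the test would miss at the spread of these mice. DESeq2 1.42.0 and limma 3.58.1 (pseudocount 0.5 or 1), other filters, scalings and designs, a loess correction for G and C content (span 0.3) and the removal of each mouse served as alternatives. Correlations used 100000 permutations. P-values of the group comparisons set a difference against the spread between mice. For the correlations, mice were shuffled across the 4 groups, so those p-values do not separate group differences from spread within groups. Only for deviations from the group means were mice shuffled within groups.

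The 8 genes and the gene lists were chosen with earlier results of these data known. Named were the 8 genes, 11 fixed partners, in each channel list the 3 genes with the largest fold change over its SE in AngII against Ctrl and in AngII+LY against AngII, and the 3 genes most like each channel. Replicate numbers did not pair the mice. Protein sequences were not used here. Some genes that this rule names are not reported here. Of the 200 list genes, 1 had no match. The marker lists for skeletal muscle, nerve, fat, pigment cells and macrophages took at most 0.308, 0.0214, 0.153, 0.0455 and 0.204% of the counts in any library.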

Additional observations from a re-analysis of the deposited data

Results flagged for a closer look

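In 24 combinations of a channel gene and a group of 4 mice, 7 held a mouse whose gap to the nearest other mouse was a larger part of the group's range than Dixon's critical value at the 95% level. For normally distributed values chance would flag about 1 in 20 groups. The rule was applied to normalized counts without a log scale, so that rate need not hold here. The 8 genes share libraries, so the 7 are not independent. Of the 7, 4 were in AngII+LY 4 and 2 in Ctrl 2, the libraries with the most atrial marker RNA. Across all tested genes, AngII+LY 4 was such a high value in 3.30% and Ctrl 2 in 2.15%, and AngII 4 also in 3.30%.

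In AngII+LY 4, Kcnh2 had 5081 normalized counts against 371 to 767 in the other AngII+LY mice, Cacna1g had 4023 against 109 to 301, Cacna1h had 3598 against 19.2 to 49.0, and Hcn4 had 784 against 33.1 to 70.0. In Ctrl 2, Cacna1h had 1849 against 17.4 to 100.5 in the other Ctrl mice and Hcn4 had 157 against 27.8 to 49.7. In AngII 3, Cacna1d was low, with 2.40 normalized counts from 2 counts against 24.8 to 29.3 in the other AngII mice.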

How the results depend on the processing

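The genes called depended on the method. Against 0 in each comparison, DESeq2 called 2784 between AngII and Ctrl, 2242 between AngII+LY and AngII, 379 between AngII+LY and Ctrl and 24 between LY and Ctrl. With no filter, edgeR called 123, 1 and 13 in the first 3 of these comparisons. In edgeR, a mean count of 100 gave 975 and 514 in the first 2, and the newer quasi-likelihood method, chosen after seeing the data, 555 and 176. The older method planned as an alternative is the default of this edgeR version and so gave identical values. Limma called 319 (pseudocount 0.5) and 336 (pseudocount 1) between AngII+LY and AngII and 4 under both between AngII+LY and Ctrl, where 4 were also called without Ctrl 2 and AngII+LY 4. Leaving out 1 mouse gave 0 to 1726 calls between AngII and Ctrl and 0 to 842 between AngII+LY and AngII, both highest without AngII 1, and 0 to 3 between AngII+LY and Ctrl, highest without AngII+LY 4. The cause was not tested.

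Directions that turned are log2 fold changes. Between AngII+LY and AngII, Kcnj2 stood at 0.24 with the GC correction, and Cacna1g and Cacna1h at -0.75 and -0.91 without the 2 mice. Between AngII+LY and Ctrl, Kcnq1 stood at 0.029 with DESeq2, 0.031 with RLE size factors, 0.64 with limma (both pseudocounts), 0.13 with the GC correction and 0.70 without the 2 mice, Cacna1g at -0.95 with limma (both) and -1.62 without the 2 mice, and Cacna1h at -0.40 without them. Between LY and Ctrl, limma gave 0.29 and 0.28 for Cacna1h and 0.33 for Kcnq1 (both), the GC correction -0.040 for Kcnj2, and leaving out the 2 mice 1.69 for Cacna1h, 0.82 for Kcnq1, 0.15 for Cacna1c and 0.29 for Cacna1g.

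Replicate numbers did not pair the mice: same-numbered mice correlated at -0.128 to 0.0897, and 4 of 12 correlated best with their own number. With the replicate number as a block, Cacna1g, Cacna1h and Kcnq1 stood at -0.53, -0.52 and 0.16 between AngII+LY and Ctrl, and Cacna1c and Cacna1h at 0.056 and 1.42 between LY and Ctrl. The block with the GC correction gave -0.42, -0.43 and 0.26 for the first 3 and 1 called gene between AngII+LY and Ctrl, 0.12, 1.52, 0.030 and -0.080 for Cacna1c, Cacna1h, Kcnq1 and Kcnj2 between LY and Ctrl, and 0.28 for Kcnj2 between AngII+LY and AngII.

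With 1 mouse left out, AngII against Ctrl ran from -3.54 to 0.52 for Cacna1h, -0.23 to 0.20 for Cacna1c and -2.05 to -0.30 for Kcnq1, with Cacna1h and Kcnq1 highest without Ctrl 2. The ranges that crossed 0 between AngII+LY and Ctrl were -1.94 to 0.32 for Kcnh2, -2.12 to 0.96 for Cacna1g, -3.68 to 4.17 for Cacna1h, -0.68 to 1.36 for Kcnq1, -0.063 to 0.56 for Kcnj2 and -0.37 to 2.56 for Hcn4. Between LY and Ctrl they were -0.39 to 0.23 for Cacna1c, -0.43 to 0.29 for Cacna1g, -3.07 to 1.69 for Cacna1h, -0.96 to 0.82 for Kcnq1, -0.99 to 0.66 for Kcnj2 and -0.88 to 1.35 for Hcn4. In AngII+LY against AngII they were -0.75 to 2.25 for Cacna1g, -0.92 to 4.43 for Cacna1h and -0.54 to 0.18 for Kcnj2.

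Against the cardiomyocyte marker level, r of Kcnh2 passed with CPM without TMM, at 0.58. On deviations from the group means Cacna1c then no longer passed (permutation test, adjusted p = 0.0581) and Cacna1g did (adjusted p = 0.0388). Without the 2 mice, r was -0.027 for Kcnh2, -0.49 for Cacna1d and -0.24 for Cacna1g, and 0.59, 0.17 and 0.38 for Cacna1c, Cacna1h and Hcn4, which no longer passed. DESeq2 gave no adjusted p for Cacna1h and Hcn4. Cacna1d and Hcn4 rest on few counts in most libraries.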
